A study of Mus musculus with 2 samples.

Results

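The metallothioneins Mt1 and Mt2 and 6 genes of the oxidative stress response, Nqo1, Gclc, Gclm, Hmox1, Txnrd1 and Srxn1, were followed in spatial transcriptomics (ST) data from mouse liver. They were chosen by symbol, so the set is 8 of the 32285 genes in the count tables, and all 8 had at least 200 UMIs in each section. The ST assay, 10x Visium, lays a frozen section of 10 µm on a slide printed with barcoded spots and counts each captured RNA molecule once through its unique molecular identifier (UMI), and a spot can hold several cells. The NCD group was a male C57BL/6J mouse on normal chow and the HFD group a male C57BL/6J mouse on the 60% fat diet D12492, both bought at 5 weeks of age, acclimated for 1 week, kept on their diet for 14 weeks and then given distilled water by gavage for 8 weeks. There was 1 section of 1 animal per diet, so the effects of diet, animal, section and slide cannot be told apart. The groups were compared without a test, and every 95% interval given here covers counting error only. PCR copies were removed through the UMIs, but spots of 1 section are not replicates.

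Metallothioneins are small proteins rich in cysteine that bind zinc and copper. In hepatocytes their genes are known to be induced by metals through the transcription factor MTF1, which binds metal response elements, and also by glucocorticoids and inflammatory cytokines. The 6 other genes are classical targets of NRF2, a transcription factor that KEAP1 keeps low until oxidants or electrophiles modify KEAP1, after which NRF2 binds antioxidant response elements. Gclc and Gclm encode the catalytic and the modifier subunit of glutamate-cysteine ligase, which makes the first step of glutathione synthesis. Txnrd1 encodes cytosolic thioredoxin reductase, Srxn1 the sulfiredoxin that repairs overoxidised peroxiredoxins, Nqo1 a quinone reductase, and Hmox1 the inducible heme oxygenase, which macrophages that clear red cells also express.

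Mt1 lies at chr8:94179082-94180327 and Mt2 at chr8:94172664-94173568, both on the plus strand and 5513 bases apart (GENCODE M21, GRCm38). Nqo1 (chr8:107388225-107403206, minus strand) and Hmox1 (chr8:75093621-75100589, plus strand) are on the same chromosome. Gclc is at chr9:77754535-77794485, Gclm at chr3:122245557-122270732, Txnrd1 at chr10:82833951-82897712 and Srxn1 at chr2:152105516-152111376, all on the plus strand. Promoters from RefSeq (GRCm38.p6) were found for 6 of the 8 genes. Those of Mt1 and Mt2 are shown because both genes differed between the sections and along the lobule, that of Srxn1 because it differed between the sections by as much, and that of Gclm because its difference was within counting error. Each is the 250 bases before the annotated start, 5′ to 3′ on the gene's strand, with capitals for the core of a metal response element (TGCACNC or TGCGCNC) or of an antioxidant response element (TGACNNNGC or TGAGNNNGC), on either strand. Where 2 matches overlap, the capitals run together. The motif letters were chosen with these sequences in view.
Mt1, chr8:94178839-94179088: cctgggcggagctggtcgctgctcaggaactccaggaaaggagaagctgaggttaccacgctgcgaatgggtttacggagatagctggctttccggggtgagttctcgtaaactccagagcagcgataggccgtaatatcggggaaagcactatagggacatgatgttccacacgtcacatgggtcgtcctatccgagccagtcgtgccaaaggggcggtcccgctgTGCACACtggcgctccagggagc
Mt2, chr8:94172368-94172617: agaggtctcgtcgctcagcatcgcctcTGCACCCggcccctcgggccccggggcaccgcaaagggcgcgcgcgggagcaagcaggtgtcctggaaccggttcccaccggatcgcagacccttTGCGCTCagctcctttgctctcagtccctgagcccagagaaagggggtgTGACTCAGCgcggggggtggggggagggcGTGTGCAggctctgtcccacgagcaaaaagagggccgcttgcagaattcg
Srxn1, chr2:152105274-152105523: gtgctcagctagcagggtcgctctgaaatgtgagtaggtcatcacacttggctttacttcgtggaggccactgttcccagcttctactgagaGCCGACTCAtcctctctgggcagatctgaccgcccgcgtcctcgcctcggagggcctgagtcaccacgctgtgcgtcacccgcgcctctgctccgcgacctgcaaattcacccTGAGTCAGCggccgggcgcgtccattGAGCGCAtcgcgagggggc
Gclm, chr3:122245307-122245556: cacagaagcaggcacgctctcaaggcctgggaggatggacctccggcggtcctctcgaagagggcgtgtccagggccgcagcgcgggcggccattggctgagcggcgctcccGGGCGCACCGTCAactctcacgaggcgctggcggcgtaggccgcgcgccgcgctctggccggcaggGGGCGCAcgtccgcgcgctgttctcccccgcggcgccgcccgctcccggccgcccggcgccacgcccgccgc

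The window of Mt2 held 3 matches to the metal response core and 1 to the antioxidant core, and that of Mt1 held 1 metal response core. GENCODE M21 lists 3 transcript starts of Mt1, of which 2 (chr8:94179211 and chr8:94179241) lie downstream of the RefSeq start, and 30 bases just after it (chr8:94179090-94179119) held 2 further metal response cores, again in capitals.
Mt1, after the annotated start: cTGCACTCcgcccgaaaagTGCGCTCggct
The window of Srxn1 held 2 antioxidant cores and 1 metal response core, and that of Gclm held 2 metal response cores, of which 1 overlaps its single antioxidant core. Among all 32851 RefSeq promoter windows of this length, 21.4% held at least 1 metal response core and 23% at least 1 antioxidant core, and 0.77% held at least 3 metal response cores. Such matches are common in promoters and are a description of the letters only.

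The labels give the tissue as liver but also name a haematopoietic stem cell line and an immune cell type. The hepatocyte markers Alb, Apoa1, Ttr, Serpina1c and Fgb were summed. Together they made up 83158 UMIs per 1000000 UMIs (CPM) in the NCD section and 87268 CPM in the HFD section. Of the listed blood stem cell markers, Kit, Cd34, Procr and Flt3 each stayed below 3.6 CPM. The remaining one, Ly6a, was at 28.8 CPM in the NCD and 51.2 CPM in the HFD section. The pan-leukocyte genes Ptprc, Coro1a and Laptm5 were at 6.61, 10.6 and 15.7 CPM in the NCD section. In the HFD section they were at 10.7, 13.5 and 34.2 CPM. With the hepatocyte markers far above all of these, both sections are described as whole liver tissue. The NCD section had 3692 spots with a median of 4187.5 UMIs, and the HFD section 3594 spots with a median of 18549 UMIs. On the NCD slide, the 1300 spots called off tissue were almost as deep (median 3383 UMIs), and a spot over tissue was deeper than one off tissue in 51.6% of pairs, against 99.2% on the HFD slide. Of the 4992 barcodes printed on every slide, 3173 lay under tissue in both sections, which is a property of the slide design. The median log2 ratio of HFD over NCD was 0.23 over the 10665 genes with at least 200 UMIs in both sections together, and ratios near that value are near the middle of all genes.

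The metallothioneins were about 2.5-fold higher in the HFD section. Mt1 was at 310 CPM (95% interval 304 to 317) in the NCD section and at 763 CPM (756 to 769) in the HFD section (log2 ratio 1.30, interval 1.26 to 1.33). Mt2 was at 46.4 CPM (43.9 to 48.9) and 115 CPM (112 to 117) (log2 ratio 1.31, interval 1.23 to 1.39). The intervals of the sections do not overlap for either gene, and the intervals of the 2 ratios overlap. Mt2 made up 13% (12.4 to 13.7) of the metallothionein UMIs in the NCD section and 13.1% (12.8 to 13.4) in the HFD section, a share of captured molecules that does not compare the transcript levels of the 2 genes. Mt1 and Mt2 have similar coding sequences, and a read that fits both could have been assigned to either or dropped in the submitters' counting.

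The 6 NRF2 targets did not move as a block. Srxn1 was at 19.3 CPM (17.7 to 21) in the NCD section and at 48.3 CPM (46.7 to 49.9) in the HFD section (log2 ratio 1.32, interval 1.19 to 1.46), as large as that of the metallothioneins. Gclc, the catalytic subunit of glutathione synthesis, was at 103 CPM (99.2 to 107) and 175 CPM (172 to 178) (log2 ratio 0.76, interval 0.71 to 0.82). Its partner Gclm was at 201 CPM (196 to 207) and 197 CPM (194 to 200) (log2 ratio -0.03, interval -0.08 to 0.01). The 2 subunits of the same enzyme therefore differed in their ratio between the sections, with intervals far apart. Txnrd1 was at 63.5 CPM (60.7 to 66.5) and 63.3 CPM (61.5 to 65.2) (log2 ratio -0.01, interval -0.08 to 0.07). Hmox1 was at 13.7 CPM (12.4 to 15.1) and 22.3 CPM (21.2 to 23.4) (log2 ratio 0.70, interval 0.55 to 0.87), but the mean of the CPM of single spots gave -0.11 over all spots. In the spots with a lobule position, described further on, the same mean gave 0.51, 0.63 and 0.63 in the 3 zones, and the NCD spots without a position had a median of 597.5 UMIs. Nqo1, with the fewest UMIs of the set (208 in the NCD and 734 in the HFD section), was at 7.16 CPM (6.22 to 8.21) and 10.2 CPM (9.45 to 10.9) (log2 ratio 0.51, interval 0.28 to 0.74).

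**Figure D1:**
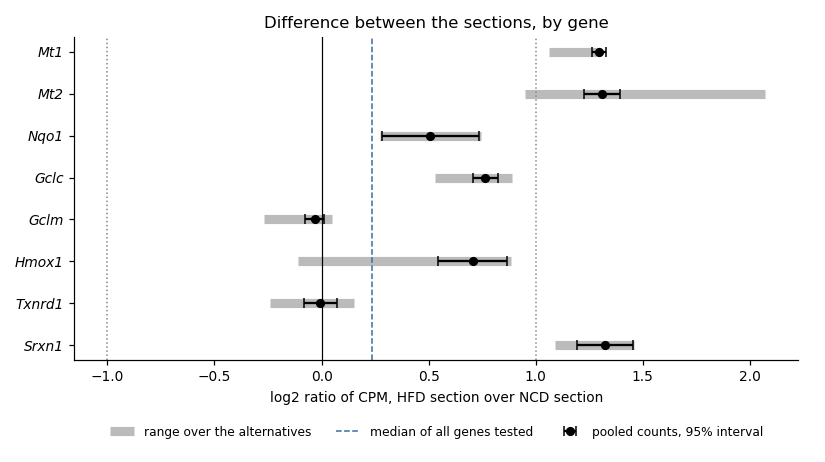
Log2 ratio of CPM between the HFD and the NCD section for the 8 genes, from counts pooled over all spots (black points, bars are 95% counting intervals), with the range over the alternative settings in grey, the median of all genes as a dashed line and the 2-fold limits dotted. Mt1, Mt2 and Srxn1 lie past the upper 2-fold limit, Gclc, Hmox1 and Nqo1 lie between the median of all genes and that limit, and Gclm and Txnrd1 lie at 0.

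Taking the set as a whole, 3 of 8 genes were at least 2-fold higher in the HFD section, and 9.3% of all genes tested were past the same fold in that direction. As a mean over spots Mt2 had a log2 ratio of 0.95, which left 2 of 8. None was at least 2-fold lower, where 1.84% of all genes were. The summed CPM of the 6 NRF2 targets was 408 (400 to 415) in the NCD section and 515 (510 to 521) in the HFD section, a log2 ratio of 0.34 (0.103 after the median of all genes was subtracted). Most UMIs of that sum were of Gclc and Gclm, whose ratios differed from each other. The summed hepatocyte markers, most of them Alb, had a log2 ratio of 0.07, within which Ttr was at 10858 and 16727 CPM and Serpina1c at 6201 and 3191 CPM. Red blood cell transcripts were at 6676 CPM in the NCD and 1246 CPM in the HFD section, markers of stellate cells at 45.3 and 133 CPM, and markers of lipid-associated macrophages, mainly Spp1, at 69.4 and 281 CPM. Fewer cells of a type and less RNA per cell cannot be told apart in spots, and the part of these markers in the ratios was not tested.

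The spots called off tissue were read as a background. On the NCD slide their depth was close to that of the spots over tissue, and whether all of them lie outside the section was not tested. There they held the metallothionein sum at 357 CPM, the same as the spots over tissue (357 CPM), and on the HFD slide at 574 CPM, below the 878 CPM of the spots over tissue. The 2 genes differed on the NCD slide, with Mt1 at 292 CPM (279 to 305) off and 310 CPM (304 to 317) over tissue. Mt2 was there at 64.8 CPM (58.9 to 71.1) off and 46.4 CPM (43.9 to 48.9) over tissue. At an equal depth of 3000 UMIs per spot, Mt1 was found in 56.1% (53.9 to 58.2) of 2107 NCD spots and in 57% (53.3 to 60.5) of 741 spots off tissue on the same slide. In the HFD section it was found in 80.6% (79.3 to 81.9) of 3538 spots and in 83.8% (76.7 to 89.4) of 142 spots off tissue. Only spots with at least 3000 UMIs enter these shares, off tissue 741 of 1300 on the NCD and 142 of 1398 on the HFD slide. Among such spots, the share with a UMI of Mt1 was no larger over tissue than beside it, and such shares are not read as expression. Before drawing down, with spots of any depth, the shares over tissue were 60% in the NCD and 98.7% in the HFD section. Off tissue they were 63.2% and 42%. With the off-tissue profile subtracted, at 6.34% of the HFD total and at the preset limit of 50% of the NCD total, the log2 ratio was 1.25 for Mt1, 2.07 for Mt2 and 1.33 for their sum, which was 1.30 without.

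Along the lobule the metallothioneins were highest near the portal tracts in both sections. Blood enters the lobule at the portal tract and leaves at the central vein, and hepatocytes along this path differ in their enzymes. Position was read from landmark genes that are not in the set: spots with at least 1000 UMIs and at least 20 landmark UMIs were ranked by the share of pericentral UMIs (Cyp2e1, Glul, Oat, Cyp1a2, Gulo) among these and the periportal UMIs (Cyp2f2, Ass1, Hsd17b13, Pck1, Hal, Sds) and divided within each section into 3 equal zones, called pericentral, midlobular and periportal. This placed 2584 NCD spots and 3569 HFD spots. Zonated genes not used for the ranking followed it: the 4 tested pericentral genes of the check list were all at least 1.5-fold higher in the pericentral zone of each section, and of the periportal genes 3 of 4 in the NCD and 5 of 5 in the HFD section were at least 1.5-fold lower there.

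In the NCD section Mt1 was at 184 CPM (175 to 193) in the pericentral, 302 CPM (291 to 312) in the midlobular and 460 CPM (445 to 475) in the periportal zone. In the HFD section it was at 421 CPM (412 to 430), 718 CPM (706 to 729) and 1036 CPM (1024 to 1047). The order of zones was the same in both sections and no neighbouring zones overlapped in their intervals. Pericentral over periportal, Mt1 had a log2 ratio of -1.32 (interval -1.41 to -1.24) in NCD and of -1.30 (interval -1.33 to -1.26) in HFD. Mt2 was at 28.4, 47.1 and 64.5 CPM in the 3 NCD zones and at 58.3, 106 and 161 CPM in the 3 HFD zones, with log2 ratios of -1.18 (-1.40 to -0.97) and -1.47 (-1.56 to -1.38). For the sum of both genes, the position ratio of the HFD section differed from that of the NCD section by -0.01 (-0.10 to 0.07), an interval that includes 0. The position ratio of Mt2 alone differed by -0.28 (-0.52 to -0.05). Drawing down to 3000 UMIs kept 2107 NCD and 3538 HFD spots, and zones were ranked again from the reduced counts. The difference was then 0.23 for the sum, 0.30 for Mt1 and -0.17 for Mt2. The value for the sum lies outside its counting interval above, so the likeness of the 2 slopes depends on this setting. Depth, spots and zones changed together in it, its values carry no interval, and the part of each was not tested.

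**Figure D2:**
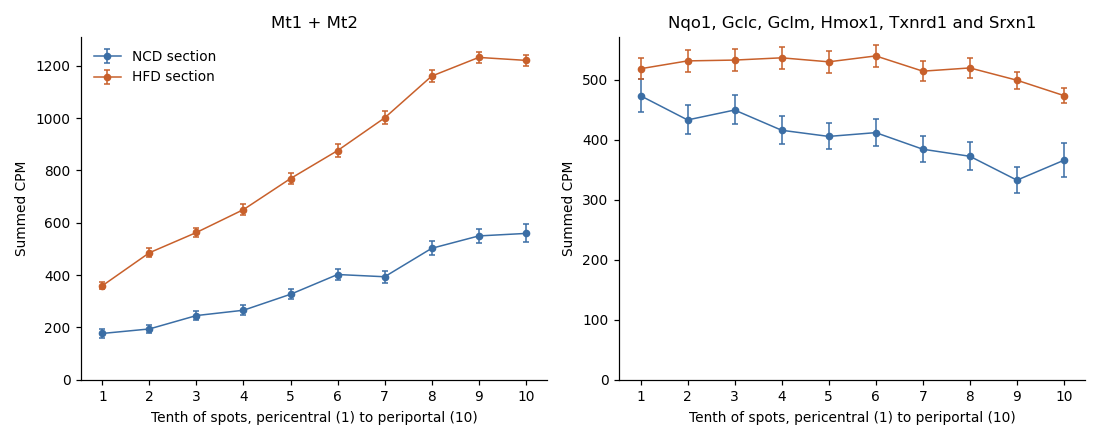
Summed CPM (linear axes from 0) in 10 equal classes of spots ordered from pericentral (1) to periportal (10) in the NCD (blue) and HFD (orange) section, with 95% counting intervals, for Mt1 and Mt2 (left) and for the 6 NRF2 targets (right). The metallothionein sum goes from 177 to 559 CPM in the NCD and from 359 to 1221 CPM in the HFD section, whereas the sum of the NRF2 targets goes from 473 to 366 CPM and from 518 to 474 CPM.

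Finer classes gave the same picture. Over 10 classes of spots, the metallothionein sum was lowest in the most pericentral class of both sections and went up in 8 of 9 steps in each. The highest class was 3.16-fold above the lowest in the NCD section and 3.43-fold in the HFD section. Hepatocyte markers as a group were also lower pericentrally, with log2 ratios of -0.65 in the NCD and -0.52 in the HFD section, and Alb alone had -0.88 and -0.66, so the metallothioneins were steeper than these. The markers listed for lipid-associated macrophages were periportal too (30.2 and 131 CPM in the outer NCD zones, 146 and 411 CPM in the outer HFD zones), and in the NCD section they were mostly Spp1 and Cd9 (1263 and 628 UMIs), with 26 UMIs of Gpnmb, 58 of Trem2 and 41 of Mmp12. Cholangiocyte markers had log2 ratios of -2.87 in the NCD and -2.22 in the HFD section, and the part of these cell types in the metallothionein slope was not tested. Median depth differed between zones, at 7882.5, 8857 and 6445 UMIs per spot in the NCD and 16989.5, 14767.5 and 24604 in the HFD section. In spots of at least 3000 UMIs drawn down to 3000, the log2 ratio of the sum was -1.29 in the NCD and -1.05 in the HFD section.

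The NRF2 targets had at most a shallow slope, in the opposite direction. Pericentral over periportal, their sum had a log2 ratio of 0.33 in the NCD and 0.09 in the HFD section, a difference of -0.24 (-0.31 to -0.16). The median of all genes tested was 0.14 in the NCD and 0.08 in the HFD section, close to the HFD value of the sum. In the NCD section Srxn1 was at 24.3 CPM (21.3 to 27.7) in the pericentral, 17.3 CPM (14.9 to 20) in the midlobular and 15.7 CPM (13.1 to 18.7) in the periportal zone (log2 ratio 0.63, interval 0.31 to 0.95), a ratio that became 0.24 when spots were drawn down to 3000 UMIs. The lower 2 zones overlap in their intervals. Txnrd1 was at 74.2, 62.5 and 49.8 CPM (log2 ratio 0.57, interval 0.40 to 0.75), with no overlap between neighbouring zones. Hmox1 was at 15.2, 14.4 and 10.6 CPM (0.51, 0.12 to 0.91), and Gclm at 219, 202 and 177 CPM (0.31, 0.21 to 0.41). Gclc was at 109, 100 and 98 CPM (0.15, 0.02 to 0.29), and Nqo1 at 8.64, 6.03 and 6.89 CPM (0.33, -0.18 to 0.84). The interval of Nqo1 includes 0, and its pericentral and periportal zones held 81 and 57 UMIs.

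In the HFD section Srxn1 was at 48.2, 51.3 and 46.2 CPM and Txnrd1 at 65.2, 63.4 and 61.9 CPM from the pericentral to the periportal zone. Both intervals of the pericentral over periportal log2 ratio include 0, at 0.06 (-0.06 to 0.18) for Srxn1 and 0.08 (-0.03 to 0.18) for Txnrd1. The position ratio of Srxn1 was lower in the HFD than in the NCD section by a difference of -0.57 (-0.90 to -0.24), and that of Txnrd1 by -0.50 (-0.70 to -0.30). In spots of at least 3000 UMIs drawn down to 3000 these differences were -0.04 and -0.49, without intervals. Gclc was also flat (170, 181 and 174 CPM, log2 ratio -0.03, -0.09 to 0.03). Hmox1 had a pericentral and midlobular level above the periportal one (24.5, 26.1 and 18.2 CPM, log2 ratio 0.43, 0.25 to 0.60). Nqo1 was at 11.7, 10.1 and 9.15 CPM (0.35, 0.10 to 0.61). Gclm was at 211, 196 and 188 CPM (0.17, 0.11 to 0.22). Kupffer cell markers were also lowest in the periportal zone of the HFD section (215, 230 and 133 CPM from pericentral to periportal). Their part in the position of Hmox1 was not tested.

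**Figure D3:**
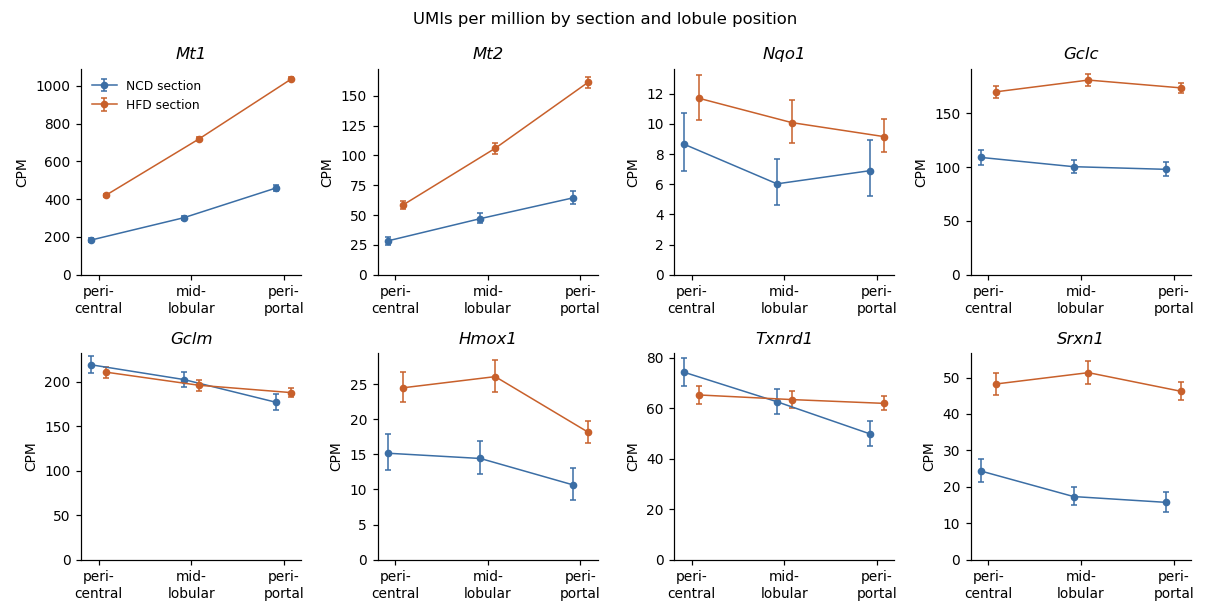
CPM of each gene in the pericentral, midlobular and periportal zone of the NCD (blue) and HFD (orange) section, on linear axes from 0 that differ between genes, with 95% counting intervals. Mt1 and Mt2 climb toward the portal side in both sections, Txnrd1 crosses (74.2 to 49.8 CPM in NCD, 65.2 to 61.9 CPM in HFD), and Gclm nearly coincides in the 2 sections.

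By the 1.5-fold limit used for position, 2 of 7 tested members (Mt1 and Mt2) were lower and 1 (Srxn1) was higher in the pericentral zone of the NCD section, beside 2.05% and 6.32% of all 5523 genes tested. In the HFD section 2 of 8 (again Mt1 and Mt2) were lower, beside 3.02% of 9302 genes, and 0 were higher, beside 4.2%. These counts were not tested.

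Within zones, the HFD section stayed above the NCD section for the metallothioneins. Zones were ranked within each section, and log2 ratios of HFD over NCD of the landmarks themselves ranged from -2.95 (Cyp1a2) to 1.63 (Hsd17b13). No position was given to 1108 NCD and 25 HFD spots. A zone of the same name need not be the same part of the lobule in both sections. The log2 ratio of Mt1 was 1.20 in the pericentral, 1.25 in the midlobular and 1.17 in the periportal zone, and that of Mt2 was 1.04, 1.17 and 1.32. Srxn1 had log2 ratios of 0.99 (0.78 to 1.20), 1.57 (1.34 to 1.80) and 1.56 (1.30 to 1.83). In these pooled counts its difference between the sections was smaller on the pericentral side, where its NCD level was highest. With spots of at least 3000 UMIs drawn down to 3000, the position ratios of Srxn1 in the 2 sections differed by -0.04. That value has no interval, and such NCD spots held a mean of 0.052 Srxn1 UMIs. It therefore cannot tell whether the contrast between the outer zones holds at equal depth. For Txnrd1 the sign depended on the zone, with -0.19 (-0.32 to -0.05) pericentrally, 0.02 (-0.12 to 0.16) midlobularly and 0.31 (0.16 to 0.47) periportally. The overall ratio of Txnrd1, near 0, thus averages zones of opposite sign. The median of all genes tested was 0.19, 0.25 and 0.24 in these zones, and the periportal interval of Txnrd1 includes it. Gclc had 0.64, 0.85 and 0.83, Hmox1 0.69, 0.86 and 0.77, and Nqo1 0.44, 0.74 and 0.41, of which the periportal value of Nqo1 has an interval that includes 0. Gclm had -0.06, -0.05 and 0.09, and the last became -0.13 after drawing down to 3000 UMIs. At least 2-fold higher in HFD were 2 of 8 members (Mt1, Mt2) in the pericentral zone, beside 7.52% of all genes tested, with Srxn1 just inside the limit, and 3 of 8 in the midlobular and in the periportal zone (Mt1, Mt2 and Srxn1), beside 8.63% and 8.59%. None was at least 2-fold lower in any zone, beside 1.72%, 1.7% and 1.5% of all genes.

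From spot to spot, the metallothionein counts were more spread than those of the NRF2 targets. Spots of at least 3000 UMIs were drawn down to 3000 for this. The variance of the metallothionein count over its mean, which is 1 for pure counting, was 1.46 in the NCD and 2.47 in the HFD section. The summed NRF2 targets had 1.01 and 1.04. The median spot held 1 metallothionein UMI in the NCD section (highest 12) and 2 in the HFD section (highest 33). Spots with at least 10 numbered 2 of 2107 in the NCD and 59 of 3538 in the HFD section. The ratio scales with the mean, which was higher in the HFD section (2.47 against 1.13 UMIs), so the 2 values do not compare the variability of the sections.

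**Figure D4:**
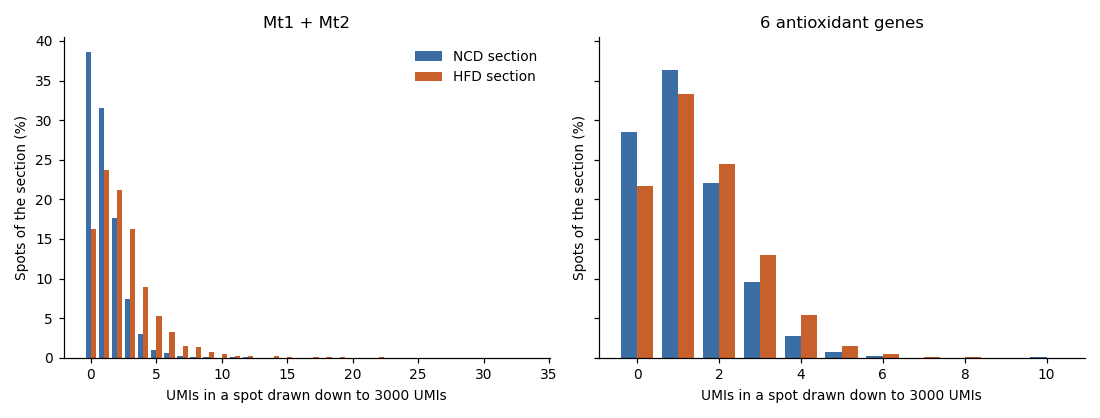
Share of spots (%) with a given number of UMIs of Mt1 and Mt2 (left) or of the 6 NRF2 targets (right), after each spot was drawn down to 3000 UMIs, in the NCD (blue, 2107 spots) and HFD (orange, 3538 spots) section. The metallothionein counts of the HFD section reach 33 UMIs in a spot, and those of the NRF2 targets stay at or below 10 in both sections.

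Across these spots Mt1 and Mt2 counts had a Pearson r of 0.06 in the NCD (2107 spots) and 0.26 in the HFD section (3538 spots), on log2(count + 1) values that share a library and a fixed depth. All other pairs of members had r between -0.04 and 0.04. At under 1 UMI per spot for most genes, such values are no evidence of unlinked or linked expression. The genes whose counts were most like those of the metallothionein sum, among 1481 genes with enough UMIs, were Alb, the major urinary protein Mup20, the heme carrier Hpx (hemopexin), the lipid droplet enzyme Hsd17b13 and Cyp2f2, with r of 0.27, 0.23, 0.18, 0.19 and 0.20 in the NCD and 0.26, 0.22, 0.30, 0.17 and 0.17 in the HFD section. All 5 were lower in the pericentral zone of both sections, and the last 2 are themselves landmarks of position. Hpx, a secreted acute phase protein, was at 2561 CPM in the NCD and 5310 CPM in the HFD section. For the sum of the NRF2 targets, the 5 nearest genes (Scp2, Mgst1, Akr1c6, Cyp3a11 and Etfdh) had r below 0.08 in each section, too weak to count as a finding.

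Hmox1 was looked at beside macrophage transcripts, since Kupffer cells recycle heme from red cells. In HFD spots drawn down to 3000 UMIs, Hmox1 was at 26.7 CPM (22 to 32.3) in the 1359 spots with a Kupffer cell marker (Clec4f, Vsig4, Cd5l, Timd4, Marco or Cd163) and at 19.4 CPM (16.2 to 23.1) in the 2179 spots without one (log2 ratio 0.46, interval 0.08 to 0.84). In the NCD section the levels were 15.2 CPM (10.9 to 20.8) and 11.6 CPM (8.42 to 15.7) (log2 ratio 0.39, interval -0.27 to 1.04) from 83 UMIs in all. Cd5l and Clec4f held 8369 and 3547 of the 13338 Kupffer marker UMIs of the HFD section. From NCD to HFD, Timd4 went from 7.89 to 0.87 CPM, Marco from 14.1 to 1.54, Cd163 from 5.99 to 0.44 and Vsig4 from 36.5 to 16.9. Clec4f went from 54 to 49.2 CPM and Cd5l from 81.8 to 116 CPM. The spots with a Kupffer marker are therefore not marked alike in the 2 sections. The metallothionein sum of the HFD section was lower in spots with a Kupffer marker, with a log2 ratio of -0.19 (-0.26 to -0.13). In spots with a marker of lipid-associated macrophages (Gpnmb, Trem2, Cd9, Spp1 or Mmp12), Hmox1 had a log2 ratio of -0.01 (-0.39 to 0.37) in the HFD section. The metallothionein sum was higher there, by 0.44 (0.38 to 0.51) in the HFD and 0.46 (0.31 to 0.61) in the NCD section. Of these spots 26.7% were pericentral in the HFD and 21.1% in the NCD section, against 38.4% and 35.3% of the spots without such a marker, and the part of position was not tested.

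The regulators of these genes are transcription factors and their partners. Of 8 listed for NRF2, 1 was at least 2-fold higher in the HFD section and none lower, beside 9.3% and 1.84% of all genes. That gene was Maff, a small MAF protein that pairs with NRF2 or represses in its absence, at 1.52 CPM (44 UMIs) in the NCD and 9.83 CPM (709 UMIs) in the HFD section, a log2 ratio of 2.70. Nfe2l2, which encodes NRF2 itself, had 0.52 (52.4 CPM in NCD and 75.2 CPM in HFD, the order used for the genes that follow), the selective autophagy receptor Sqstm1 had 0.64 (219 and 341 CPM) and Mafk had 0.68 (8.09 and 12.9 CPM). The median of the list was 0.51, beside 0.23 for all genes tested. NRF2 protein is controlled after translation, so its transcript is not a readout of its activity.

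Other NRF2 targets were split. Of 22 with at least 200 UMIs, 3 were at least 2-fold higher, 2 at least 2-fold lower and 17 neither, with a median of 0.28, beside 9.3% higher and 1.84% lower over all genes. The glutathione transferase Gsta1 had a log2 ratio of 3.70 (4.37 and 57 CPM) while its near-identical neighbour Gsta2 had -0.64 (56.8 and 36.5 CPM), so reads of the pair may have been divided differently and both values are uncertain. Gstm3 had 1.99 (16.8 and 67.1 CPM). In the other direction, Osgin1, an oxidative stress induced growth inhibitor, had -1.64 (170 and 54.4 CPM) and Gstp1 had -1.54 (294 and 101 CPM). Along the lobule, 9 of 18 of these targets in the NCD and 6 of 20 in the HFD section were at least 1.5-fold higher in the pericentral zone, beside 6.32% and 4.2% of all genes. Gstm3 was among them, with log2 ratios of 1.94 and 1.67, and Gstp1 was not (-0.97 and -0.16).

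Enzymes that remove peroxides and superoxide differed in both directions. Of 15, 1 was at least 2-fold higher and none lower (9.3% and 1.84% of all genes), with a median of 0.07. Gpx4, the peroxidase of membrane lipids, was the one past the limit at 670 and 1395 CPM, a log2 ratio of 1.06. The cytosolic superoxide dismutase Sod1 had -0.82 (1535 and 869 CPM), Msra, which repairs oxidised methionine, 0.72, and the mitochondrial peroxiredoxin Prdx3 0.52. Of 8 further genes of glutathione handling, 2 were at least 2-fold higher (9.3% of all genes), Chac1, which degrades glutathione, at 1.55 (39 and 283 UMIs) and Ggct at 1.41. Gss, which completes glutathione synthesis after Gclc and Gclm, had 0.87 (42.5 and 77.7 CPM), and the abundant microsomal transferase Mgst1 had -0.43.

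Among 11 tested genes of metal handling, 2 were at least 2-fold higher in the HFD section and none lower (9.3% and 1.84% of all genes). These were the zinc importers Slc39a5 (17 and 203 UMIs, log2 ratio 2.27) and Slc39a4 (15.1 and 32.3 CPM, 1.10). Another importer, Slc39a14, which the acute phase is known to induce in hepatocytes, had 0.91 (53.2 and 100 CPM), and the copper chaperone Atox1 had 0.71. Slc39a4 shared the periportal slope of the metallothioneins, with a pericentral over periportal log2 ratio of -1.17 in the NCD and -0.97 in the HFD section, and Slc39a14 had 0.00 and -0.53. The median of the list was 0.27, close to the 0.23 of all genes. A further metallothionein gene, Mt3, had 11 UMIs in HFD and 0 UMIs in NCD, where a count of 0 allows up to 3 counts.

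**Figure D5:**
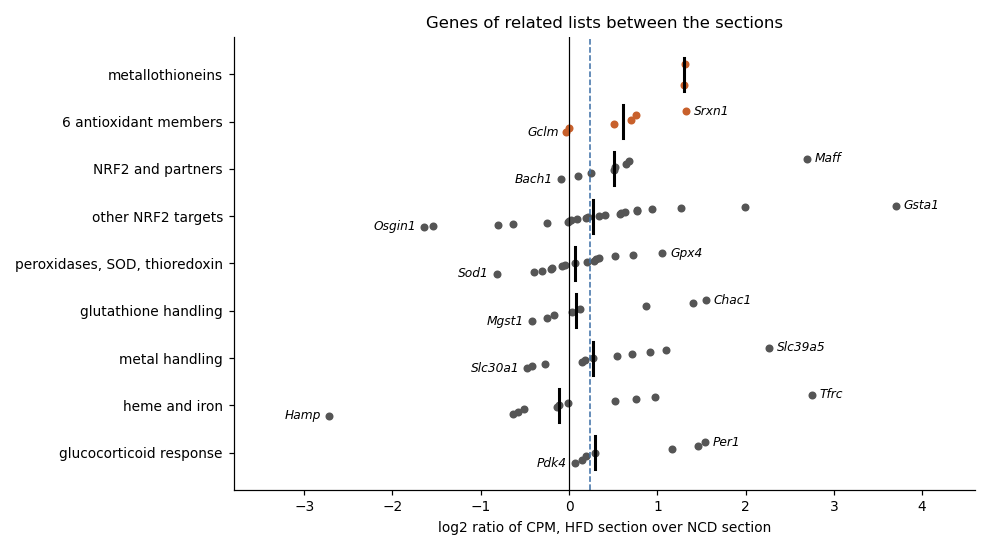
Log2 ratio of CPM between the HFD and the NCD section for each gene with at least 200 UMIs in the lists named on the left (orange for the 8 genes followed here, grey for related genes), with the median of a list as a black bar, the median of all genes as a dashed line and the lowest and highest gene of a list named. Both metallothioneins lie at 1.30 and 1.31, and the medians of the other NRF2 targets and of metal handling (0.28 and 0.27) lie near the median of all genes.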

How the data were processed

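UMI counts per gene and spot were deposited by the authors without normalization. For the spots over tissue the file headers name Space Ranger 1.3.1. For the counts of all barcodes, from which the spots off tissue were taken, they name Cell Ranger 4. Over the spots shared by both, 0 UMIs differed. The submitters' processing notes name the mouse build mm10. Summed counts of a gene were scaled to 1000000 UMIs of the same spots (CPM). Sums carry exact Poisson, shares Clopper-Pearson and ratios exact conditional binomial intervals at 95%, and differences of position ratios carry Wald intervals. With 1 section per diet there was no test. Limits of 2-fold between sections and 1.5-fold for position apply to genes with at least 200 UMIs over the groups compared. Drawing down used seed 1, left out spots below the target depth and ranked zones again. Genes named are the 8 members, up to 4 per related list with the largest ratio between the sections, and the 5 most like each sum across spots. Gsta2, Mt3, Kit, Cd34, Procr, Flt3, Ly6a, Ptprc, Coro1a and Laptm5 were named after their values were seen. The members and lists were chosen with earlier results of these data known. Alternatives changed the weighting, depth, minimum of UMIs, total, scaling, off-tissue subtraction, top spots, landmarks and zones. The scripts (scipy 1.17.1 and numpy 2.4.6 under Python 3.11.15) were tested on simulated data. Spot coordinates, images and the single-cell data were not used here.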

Additional observations from a re-analysis of the deposited data

How the results depend on the processing

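No alternative turned the direction of a metallothionein value, between sections or along the lobule. HFD over NCD, the log2 ratio of the metallothionein sum was 1.12 as a mean of spots, 1.13 and 1.22 after drawing spots down to 3000 and 1000 UMIs, 1.06 less the median of all genes and 1.33 with the off-tissue profile subtracted. That of the 6 NRF2 targets was 0.18, 0.31, 0.26, 0.103 and 0.42 under the same settings. The mean of spots turned Hmox1 to -0.11 and took Mt2 to 0.95, which left 2 members past 2-fold, and with only the spots of at least 3000 UMIs, a setting added after seeing the data, Hmox1 had 0.75. Mt2 was at 2.07 with the off-tissue profile subtracted, which took 50% of the NCD total.

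Pericentral over periportal, the metallothionein sum was -1.43 in the NCD and -1.37 in the HFD section without mitochondrial and the 20 most abundant genes in the total, and -1.57 and -1.55 with 5 classes in place of the 3 zones. In the HFD section it was also -1.24 as a mean of spots, -1.05 drawn down to 3000 UMIs, -1.28 without the 1% of spots with the most UMIs, -1.19 with a z score of landmarks and -1.20 without Cyp2e1. The NRF2 targets were at 0.24 and 0.055 (NCD, HFD) drawn down to 3000 UMIs, and at 0.21 and 0.045 without the abundant genes. Members at least 1.5-fold higher pericentrally in the NCD section numbered 0 drawn down to 3000 UMIs, without the abundant genes or with the z score, 2 as a mean of spots or without the top spots, and 3 with 5 classes, against 1. Shares of all genes past a fold, for position and between sections, were read only in the main setting. The counts of members under the alternatives therefore have no such share beside them and are not read as results. Gclm, HFD over NCD in the periportal zone, was -0.13 drawn down to 3000 UMIs. Depth limits Nqo1 and Hmox1 most, with 208 and 397 UMIs in the NCD section. The causes of these shifts were not tested. No paired analysis was possible because each diet has 1 section.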

Other observations

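Genes that respond to glucocorticoids, a known inducer of metallothioneins, were also read in both sections. Of 7 with at least 200 UMIs, 3 were at least 2-fold higher in the HFD section and none lower, beside 9.3% and 1.84% of all genes. The clock gene Per1 was at 9.13 CPM in the NCD and 26.6 CPM in the HFD section (log2 ratio 1.54), Fkbp5, a chaperone of the glucocorticoid receptor, at 12.6 and 34.7 CPM (1.46), and Tsc22d3, which encodes the glucocorticoid-induced leucine zipper, at 77.3 and 173 CPM (1.17). Tat, an amino acid enzyme of the same list, was at 748 and 917 CPM (0.29), and the median of the list was 0.29, beside 0.23 for all genes. Per1 and Tsc22d3 had log2 ratios between -0.09 and 0.13 along the lobule, and Fkbp5 had -0.12 in the NCD and -0.50 in the HFD section.

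Of 11 genes of heme and iron handling, 1 was at least 2-fold higher and 1 at least 2-fold lower in the HFD section, beside 9.3% and 1.84% of all genes. Tfrc, the transferrin receptor, was at 2.55 CPM (74 UMIs) in the NCD and 17.2 CPM (1240 UMIs) in the HFD section, a log2 ratio of 2.75, and Hamp, the iron hormone hepcidin, was at 3949 and 599 CPM, a log2 ratio of -2.72. The ferritin light chain Ftl1 had 0.98 (4851 and 9551 CPM) and Alas1, the first enzyme of heme synthesis, 0.76. Red blood cell transcripts were at 6676 CPM in the NCD and 1246 CPM in the HFD section, and their part in these values was not tested.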
